A study of Oryza sativa with 18 samples.

Results

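The oscoi2 line was compared with WT plants in crown root tips that had received the mock treatment and no added jasmonate. The comparison holds the 3 oscoi2 mock libraries and the 3 WT mock libraries, 6 of the 18 libraries of the series, chosen by line and treatment from their titles. It asks which genes differ in a plant edited in the jasmonate (JA) receptor gene OsCOI2 before the hormone is given. The oscoi2 plants carry the oscoi2-2 allele, a T deletion and a 36 nt deletion in OsCOI2. They are T3 homozygous plants in the rice cultivar Kitaake (Oryza sativa), and the WT plants are unedited Kitaake. Both groups were 6 days old, received DMSO for 6 h, and gave crown root tips of about 1 cm pooled from 20 to 24 plants per sample. Other groups used here are oscoi2 and WT plants given 5 µM JA for 6 h, and oscoi1ab plants (alleles oscoi1a-1 and oscoi1b-1, edited in OsCOI1a and OsCOI1b) under mock and after JA, with 3 libraries each. The edited gene is represented by 1 oscoi2 line, so an effect of OsCOI2 and an effect of any other difference between this line and WT plants cannot be told apart.

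In plants, the active hormone JA-Ile is perceived by a coreceptor made of the F-box protein COI1 and a JAZ repressor. Perception leads to degradation of the JAZ proteins and releases transcription factors such as MYC2, which activate defense, wound and secondary metabolism genes and genes of JA synthesis itself. Rice has the COI genes OsCOI1a, OsCOI1b and OsCOI2, and in roots JA is known for restraining elongation.

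The line was made with 2 guides against OsCOI2, and their target sites are shown because they define the comparison, with the PAM in capitals. Coordinates are those of the Kitaake sequence that the study assembled, and the sequences come from its list of candidate sites.
oscoi2_gRNA1, chr3:8796630-8796652, reverse strand: ttcgacaattgcgcacaaggAGG
oscoi2_gRNA2, chr3:8796721-8796743, forward strand: atattacaagactttgccggTGG
The T deletion lies at the site of the first guide and the 36 nt deletion at the site of the second. Of 66 candidate off-target sites listed for both guides, 1 carried a change in the line, an A insertion in the retrotransposon gene LOC_Os12g08620. It is a site of the first guide, shown with its mismatches in capitals.
LOC_Os12g08620, chr12:4313509-4313531, reverse strand: tAcgaGaattCcgcaTaaggcgg
Counted from 1 at the 5′ end of the guide, the mismatches are T2A, C6G, G11C and C16T. The gene itself was near the limit of detection in CPM (counts scaled to library size, on edgeR's TMM scale). It had 0, 0.129 and 0.116 CPM in oscoi2 mock libraries 1 to 3, against 0.469, 0.132 and 0.170 CPM in WT mock libraries 1 to 3. The groups did not overlap, and 12.3% of all genes lay lower without overlap. Its log2 ratio of oscoi2 over WT (log2FC) was -1.64 (SE 1.45, edgeR adjusted p = 0.56). The second guide had no changed off-target site in that list.

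The totals of the 18 libraries lay between 99657931 and 113672521 counts. Low counts are spaced by about 3.72, taken here as 1 read pair. A library with no count allows a level of up to 0.0922 to 0.102 CPM in the 6 mock libraries compared, a limit of 3 read pairs that covers counting error only. No 2 libraries of a group agreed within sampling noise. The root tip markers had a summed level of 2561 to 2618 CPM in oscoi2 and 2830 to 3214 CPM in WT plants. Most of it came from the silicon transporters OsLsi1 and OsLsi2, so the sum says little about the other markers. OsLsi1, an influx channel, had 1421 to 1505 CPM in oscoi2 and 1466 to 1732 CPM in WT plants. Tests are edgeR's quasi-likelihood F test with Benjamini-Hochberg adjustment over the 30907 genes tested, and a DEG (differentially expressed gene) is one whose adjusted p lies under 0.01 while its log2FC, oscoi2 over WT, is 1 or more in size. The 3 oscoi2 and the 3 WT mock libraries did not overlap in 26.9% of the genes tested, 14.6% higher and 12.3% lower in oscoi2. Non-overlap alone is therefore common. A lower level in these bulk samples cannot be told apart from fewer cells of the kind that expresses the gene.

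OsCOI2 (LOC_Os03g15880), the edited receptor gene, was lower in its own line. It had 23.2, 25.7 and 24.1 CPM in oscoi2 mock libraries 1 to 3, against 42.8, 36.1 and 52.0 CPM in WT mock libraries 1 to 3. All 3 oscoi2 libraries lay below all 3 WT libraries (12.3% of all genes did so), with means of 24.3 ± 1.27 and 43.6 ± 8.01 CPM (SD, n = 3 each). The log2FC was -0.84 (SE 0.14, edgeR adjusted p = 0.0044), under the fold required of a DEG, and the transcript was thus still detected at a reduced level. In the JA libraries, which are separate samples, OsCOI2 had 22.6, 28.6 and 22.3 CPM in oscoi2 plants, against 43.9, 44.1 and 48.1 CPM in WT plants.

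The 2 other receptor genes were not edited in this line. OsCOI1b (LOC_Os05g37690) had 87.7, 101 and 86.3 CPM in oscoi2 mock libraries, against 124, 137 and 142 CPM in WT mock libraries, with a log2FC of -0.55 (SE 0.11, edgeR adjusted p = 0.011). Its groups did not overlap under mock, where 12.3% of all genes lay lower without overlap. After JA it had 90.7, 119 and 95.1 CPM in oscoi2 and 89.5, 99.9 and 102 CPM in WT plants. OsCOI1a (LOC_Os01g63420) overlapped under mock, with 78.0, 88.7 and 67.4 CPM in oscoi2 and 95.1, 70.3 and 108 CPM in WT plants (log2FC -0.23, SE 0.29, edgeR adjusted p = 0.71).

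**Figure D1:**
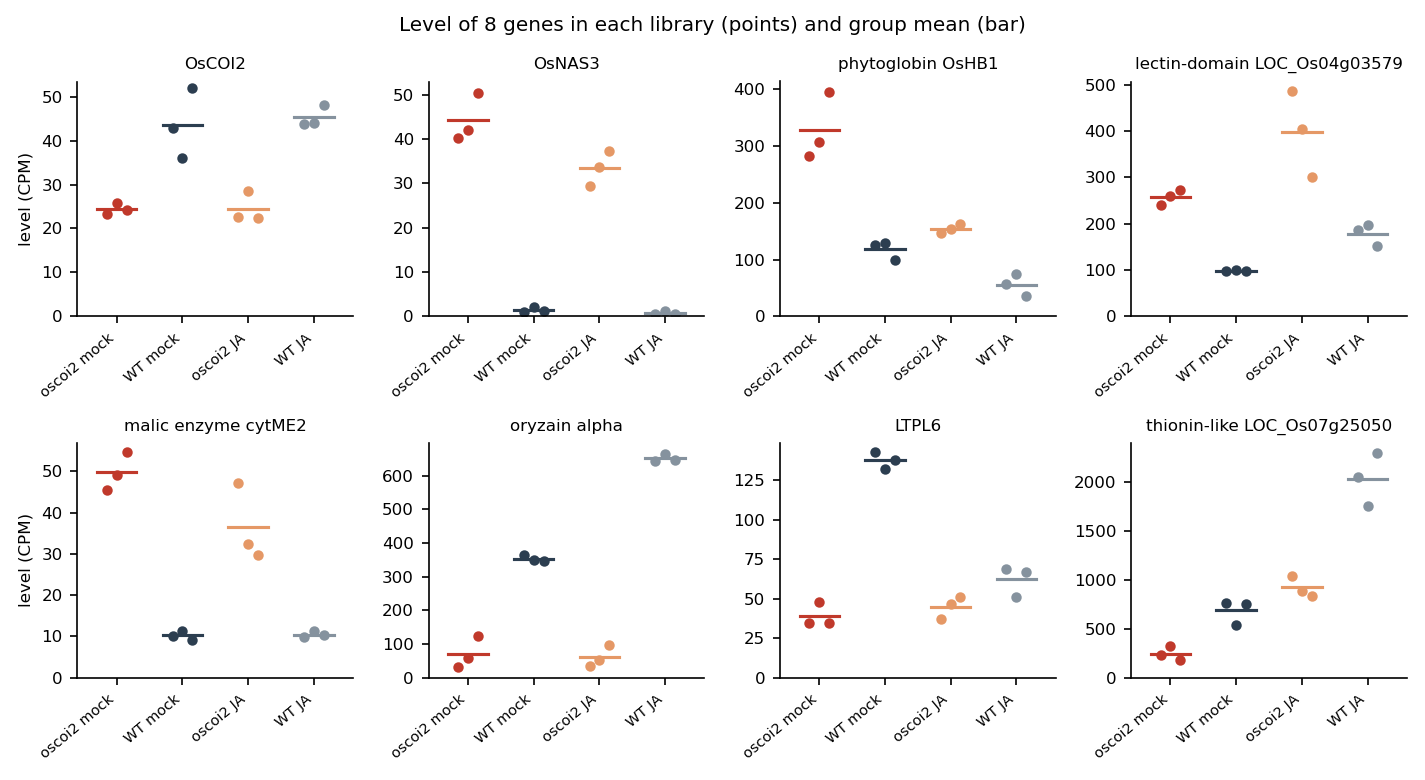
Level (CPM) of 8 genes in each library of oscoi2 mock, WT mock, oscoi2 JA and WT JA plants, with 1 point per library and a bar at the group mean of 3. OsCOI2 lies lower in oscoi2 libraries under both treatments, OsNAS3 is at 40.2 to 50.5 CPM in oscoi2 mock and at 1.02 to 2.1 CPM in WT mock libraries, and oryzain alpha spreads from 31.9 to 124 CPM within oscoi2 mock plants.

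There were 68 DEGs higher in oscoi2 than in WT plants (0.220% of the genes tested) and 48 lower (0.155%), 116 in all (0.375%). The higher DEGs were weakly expressed and changed strongly, with a median level of 4.13 CPM over the 6 libraries and a median log2FC of 4.80, or 3.05 with the genes at 0 in WT plants set at their bound of 3 read pairs. The lower DEGs had a median level of 23.2 CPM and a median log2FC of -1.55. Whatever the fold, 3.56% of the tested genes were higher and 2.78% lower at an adjusted p under 0.05. Without adjustment 22.7% had a p under 0.05, and the median log2FC was 0.02. The number of DEGs rested on single libraries: it was 120 higher and 136 lower without oscoi2 mock 2, 41 and 9 without oscoi2 mock 1, 37 and 10 without oscoi2 mock 3, 38 and 24 without WT mock 1, 48 and 13 without WT mock 2, and 42 and 11 without WT mock 3. In every one of these omissions 32 of the 68 higher and 5 of the 48 lower DEGs kept their call, and no DEG changed sign. The call held in every omission for OsNAS3, OsPME1, cytME2, OsABCB2, LOC_Os03g18779, LOC_Os03g02470, LOC_Os11g11694, LOC_Os01g64949, LOC_Os06g40530, LOC_Os01g36064, LOC_Os04g24770, LOC_Os07g32710, LOC_Os07g32680, Os03g0426350, LOC_Os07g46910, LOC_Os12g02210, LOC_Os11g40640, the 3 NB-ARC genes and, among the lower DEGs named, LOC_Os07g25060, LOC_Os11g02379, LOC_Os12g08564 and LOC_Os11g39430, and every other DEG named lost it in at least 1. A fit of only the 6 libraries compared made 22 higher and 2 lower calls.

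**Figure D2:**
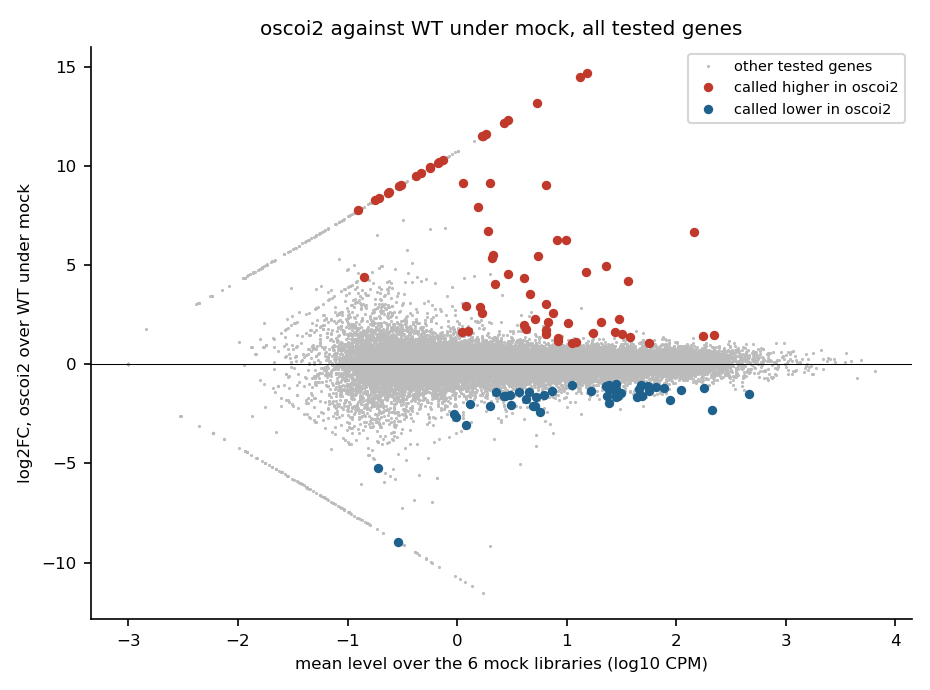
Change of each of the 30907 tested genes (log2FC, oscoi2 over WT under mock) against its mean level over the 6 mock libraries (log10 CPM). The 68 higher DEGs spread from a log2FC of 1.06 upward, and most of the 48 lower DEGs lie between -1 and -3. The higher DEGs on the upper diagonal are at 0 in all WT mock libraries, and their fitted log2FC is no bound.

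A large share of the higher DEGs had little or no signal in WT plants. All 3 WT mock libraries were at 0 in 22 of the 68, against 0.819% of all genes tested, and 18 of these were at 0 in the WT JA libraries too. The DEGs were picked for lying above these WT mock libraries, so part of their share at 0 is built in. Genes at 0 in all WT and oscoi1ab libraries were tested only because oscoi2 libraries gave them counts. LOC_Os03g18779, annotated as a conserved hypothetical protein, had 46.8, 29.8 and 15.3 CPM in oscoi2 mock libraries and 0 in the 6 WT libraries. Measured against the limit of 3 read pairs per WT library, it was at least 309-fold higher in oscoi2 plants (edgeR adjusted p = 4.5e-05). After JA it had 42.4, 28.2 and 12.3 CPM in oscoi2 plants, and in the 6 oscoi1ab libraries it stayed at or below 0.0324 CPM.

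Another gene with this pattern, LOC_Os03g02470, had 29.6, 11.4 and 38.9 CPM in oscoi2 mock libraries and was at 0 in all WT and all oscoi1ab libraries. It was at least 269-fold higher in oscoi2 plants under mock (edgeR adjusted p = 0.002). The noncoding transcript Os12g0599625 and the retrotransposon gene LOC_Os11g11694 were likewise at 0 in all 12 WT and oscoi1ab libraries. Os12g0599625 had 15.6, 2.43 and 14.4 CPM in oscoi2 mock libraries, at least 109-fold higher, and LOC_Os11g11694 had 7.16, 6.67 and 2.40 CPM, at least 54.7-fold higher. Reads of a retrotransposon gene can belong to other copies, so its level is uncertain. The DEG call of Os12g0599625 held only in the omission of oscoi2 mock 2.

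Other genes at 0 in WT mock plants had counts in both edited lines. OsPME1 (LOC_Os03g19610), named as a pectin methylesterase and annotated with a pectin lyase fold, had 7.03, 4.73 and 5.95 CPM in oscoi2 mock and 3.45, 2.71 and 2.27 CPM in oscoi1ab mock libraries, with 0 in the 6 WT libraries. It was at least 59.7-fold higher in oscoi2 than in WT plants (edgeR adjusted p = 1.3e-06). Its neighbour LOC_Os03g19600, the locus listed just before it, was a DEG too, at 0.740, 0.501 and 0.520 CPM in oscoi2 mock libraries and 0 in WT mock libraries. LOC_Os01g64949, a conserved hypothetical gene, had 3.68, 3.75 and 2.87 CPM in oscoi2 mock libraries, was at 0 in WT plants and was at least 34.7-fold higher. LOC_Os06g40530, annotated as a CACTA transposon, had 4, 2.3 and 3.77 CPM in oscoi2 mock libraries and was at least 33.9-fold higher. Of the 22 DEGs at 0 in WT mock plants, 17 were above 0 in all 6 oscoi1ab libraries. Levels above 0 include some under the limit of 3 read pairs. LOC_Os03g19600, for one, had 0.0394 CPM in oscoi1ab mock library 1, where that limit is 0.0881 CPM. The same share over all genes at 0 in WT mock plants was not counted.

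Further higher DEGs of this size were LOC_Os06g44800 and LOC_Os01g36064, both annotated with the dimerisation domain of hAT transposases, and the expressed protein LOC_Os04g24770. LOC_Os06g44800 had 7.09, 2.84 and 1.03 CPM in oscoi2 mock libraries and 0 in WT mock libraries, at least 36.9-fold higher. LOC_Os01g36064 had 3.39, 4.88 and 3.66 CPM in oscoi2 mock libraries, against 0, 0.0176 and 0 CPM in WT mock libraries. LOC_Os04g24770 had 3.34, 2.17 and 1.35 CPM in oscoi2 mock libraries, against 0.00885, 0 and 0 CPM in WT mock libraries. These genes were close to 0 in oscoi1ab plants, which had at most 0.158 CPM of LOC_Os06g44800 under mock.

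LOC_Os07g32710, annotated as a hypothetical protein in one source and as a retrotransposon gene in the other, was among the most abundant higher DEGs. It had 326, 235 and 302 CPM in oscoi2 mock libraries, against 2.18, 3.89 and 2.33 CPM in WT mock libraries, a log2FC of 6.68 (SE 0.47, edgeR adjusted p = 1.8e-06). Oscoi1ab plants overlapped with the oscoi2 plants, at 350, 329 and 312 CPM under mock. LOC_Os07g32680, 3 listed loci away, was also a DEG with 5.39, 5.32 and 6.05 CPM in oscoi2 mock libraries, against 0.327, 0.334 and 0.0538 CPM in WT mock libraries. Os03g0426350, a conserved hypothetical gene, was likewise low in WT plants only, with 62.3, 69.5 and 74.1 CPM in oscoi2, 2.16, 4.97 and 4.20 CPM in WT and 78.0, 89.1 and 84.7 CPM in oscoi1ab mock libraries.

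OsNAS3 (LOC_Os07g48980) had the lowest p of the named genes. It encodes a nicotianamine synthase, which makes the metal chelator nicotianamine. Its level was 40.2, 42.1 and 50.5 CPM in oscoi2 mock libraries, against 1.02, 2.1 and 1.18 CPM in WT mock libraries. The log2FC was 4.95 (SE 0.30, edgeR adjusted p = 4.5e-07). After JA, OsNAS3 had 29.4, 33.7 and 37.2 CPM in oscoi2 and 0.496, 1.12 and 0.604 CPM in WT plants, a log2FC of 5.50 (edgeR adjusted p = 4.5e-08). In oscoi1ab plants it had 47.3, 42.8 and 37.1 CPM under mock, overlapping with the oscoi2 plants.

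OsNAS3 was the 1 called member of the 7 iron uptake genes described, whose median log2FC was 0.42. OsNAS1 (LOC_Os03g19427), a second nicotianamine synthase, had 374, 447 and 559 CPM in oscoi2 mock libraries, against 263, 309 and 300 CPM in WT mock libraries, and did not pass (log2FC 0.66, edgeR adjusted p = 0.2). OsNAS2 (LOC_Os03g19420) had 355, 385 and 533 CPM in oscoi2, against 246, 270 and 266 CPM in WT plants (log2FC 0.70, edgeR adjusted p = 0.21). OsNAS1 and OsNAS2 lie side by side and encode related enzymes, so reads could be shared between them. OsYSL15 (LOC_Os02g43410), which takes up iron bound to phytosiderophore, had 211, 208 and 260 CPM in oscoi2, against 156, 157 and 196 CPM in WT plants (log2FC 0.42, edgeR adjusted p = 0.11).

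Among the metabolic and stress genes, cytME2 (LOC_Os05g09440), an NADP-malic enzyme that makes pyruvate and NADPH from malate, was raised in oscoi2 plants. It had 45.6, 49.2 and 54.6 CPM in oscoi2 mock libraries, against 10.2, 11.3 and 9.19 CPM in WT mock libraries (log2FC 2.28, SE 0.24, edgeR adjusted p = 0.0001). Oscoi1ab plants lay between the groups with 12.9, 27.0 and 26.3 CPM. The phytoglobin gene LOC_Os03g13140, whose product scavenges nitric oxide, had 283, 307 and 396 CPM in oscoi2 mock libraries, against 125, 130 and 99.7 CPM in WT mock libraries (log2FC 1.47, SE 0.25, edgeR adjusted p = 0.005). Its call held in 1 omission, that of oscoi2 mock 2. LOC_Os07g46910, a short-chain dehydrogenase/reductase, had 45.4, 36.0 and 44.0 CPM in oscoi2, against 12.1, 14.2 and 14.7 CPM in WT mock libraries (log2FC 1.61, SE 0.17, edgeR adjusted p = 7.8e-05).

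OsABCB2 (LOC_Os01g34970), an ATP-binding cassette transporter of the multidrug resistance type, was higher in oscoi2 than in the other lines. It had 47.1, 65.6 and 50.5 CPM in oscoi2 mock libraries, against 20.3, 20.8 and 21.5 CPM in WT mock libraries (log2FC 1.38, SE 0.14, edgeR adjusted p = 5.9e-05). In oscoi1ab mock libraries it had 23.7, 18.8 and 23.8 CPM. LOC_Os04g03579, with a lectin/glucanase domain and also annotated as a protein kinase, followed the same order, with 240, 261 and 274 CPM in oscoi2, 96.8, 99.6 and 97.1 CPM in WT and 86.6, 64.8 and 107 CPM in oscoi1ab mock libraries. Its log2FC over WT plants was 1.40 (SE 0.19, edgeR adjusted p = 0.0015), and the call was lost without WT mock 3. LOC_Os08g03020 and LOC_Os08g03070, 5 listed loci apart and annotated as lectin-like receptor kinases, were both higher, with a log2FC of 1.78 and 1.18 (edgeR adjusted p = 0.0047 and 0.0048). LOC_Os08g03070 had 10.3, 10.9 and 13.3 CPM in oscoi2, against 4.87, 5.17 and 5.14 CPM in WT mock libraries.

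OsLAC12 (LOC_Os03g18640) encodes a laccase, an oxidase that can polymerise monolignols, and had 89.6, 59.6 and 80.5 CPM in oscoi2 mock libraries, against 36.4, 40.2 and 31.0 CPM in WT mock libraries (log2FC 1.09, SE 0.20, edgeR adjusted p = 0.0068). The dirigent gene LOC_Os07g44250, of a family that steers the coupling of monolignol radicals, had 59.2, 37.0 and 46.0 CPM in oscoi2, against 17.5, 15.6 and 16.7 CPM in WT mock libraries (log2FC 1.51, SE 0.23, edgeR adjusted p = 0.0029). The groups did not overlap for either gene, where 14.6% of all genes lay higher without overlap. Both calls held only without oscoi2 mock 2. A CASP-like membrane protein, OsCASP5 (LOC_Os04g38690), chosen after its values were seen, had 34.8, 18.4 and 25.2 CPM in oscoi2, against 9.11, 10.9 and 6.65 CPM in WT mock libraries (log2FC 1.56, edgeR adjusted p = 0.0097).

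Several higher DEGs without a place in the naming rule were picked after their values were seen. LOC_Os12g02210, a C3HC4 zinc finger gene of the RING type, had 23.9, 21.0 and 13.9 CPM in oscoi2, 0.124, 0.396 and 0.251 CPM in WT and 0.418, 0.344 and 0.150 CPM in oscoi1ab mock libraries (log2FC over WT 6.25, SE 0.46, edgeR adjusted p = 2.3e-06). After JA it was at 63.9, 40.5 and 34.1 CPM in oscoi2 and at 7, 4.05 and 4.45 CPM in WT plants. OsBURP16 (LOC_Os10g26940), annotated as a polygalacturonase beta subunit, had 14.6, 50.7 and 21.1 CPM in oscoi2, against 0.292, 1.48 and 1.64 CPM in WT mock libraries (log2FC 4.66, SE 0.72, edgeR adjusted p = 0.0034). Its call was lost without any 1 of the WT mock libraries. LOC_Os11g43700, LOC_Os11g45180 and LOC_Os11g44990 have an NB-ARC domain, as intracellular immune receptors do, and were higher by a log2FC of 3.54, 3.01 and 2.14. LOC_Os11g43700 had 7.46, 10.8 and 7.32 CPM in oscoi2, 0.929, 0.519 and 0.744 CPM in WT and 6.96, 9.42 and 11.3 CPM in oscoi1ab mock libraries. Reads of such families can be split between similar genes, which makes their levels uncertain.

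The lower DEG of highest level was LOC_Os07g25050, similar to thionin-like peptides, which belong to a family of small cysteine-rich antimicrobial proteins. It had 227, 328 and 182 CPM in oscoi2 mock libraries, against 767, 543 and 755 CPM in WT mock libraries (log2FC -1.49, SE 0.27, edgeR adjusted p = 0.0069). The adjacent LOC_Os07g25060, also thionin-like, had 34.0, 30.1 and 32.0 CPM in oscoi2, against 76.6, 69.7 and 97.4 CPM in WT mock libraries (log2FC -1.34, SE 0.17, edgeR adjusted p = 0.00058). LOC_Os07g25050 was called in 1 omission, that of oscoi2 mock 2. As tandem copies they could share reads. LOC_Os07g25060 had 138, 108 and 158 CPM in oscoi2 and 200, 238 and 233 CPM in WT plants after JA.

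The cysteine protease oryzain alpha (LOC_Os04g55650), a papain-like enzyme, was far lower in oscoi2 plants. It had 31.9, 58.8 and 124 CPM in oscoi2 mock libraries, against 365, 349 and 346 CPM in WT mock libraries. The log2FC was -2.30 (SE 0.39, edgeR adjusted p = 0.0048), and the spread lay within the oscoi2 plants, with means of 71.7 ± 47.5 and 353 ± 10 CPM (SD, n = 3 each). Its call held in 1 omission, that of oscoi2 mock 3, although every oscoi2 library stood far below every WT library. After JA it had 35.8, 52.3 and 96.9 CPM in oscoi2, against 643, 665 and 646 CPM in WT plants (log2FC -3.40, edgeR adjusted p = 4.6e-05). In oscoi1ab mock libraries it had 266, 261 and 325 CPM.

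Of the genes annotated as lipid transfer proteins, small secreted lipid binders, a neighbouring pair was lower and 1 gene was higher. LOC_Os11g02379, named LTPL6, had 34.5, 47.8 and 34.3 CPM in oscoi2 mock libraries, against 143, 132 and 138 CPM in WT mock libraries (log2FC -1.83, SE 0.16, edgeR adjusted p = 1.4e-05). LOC_Os11g02389 next to it had 11.4, 13.3 and 10.1 CPM in oscoi2, against 43.9, 33.4 and 28.3 CPM in WT mock libraries (log2FC -1.60, SE 0.26, edgeR adjusted p = 0.0043). Reads could be shared between these copies too. The higher one, OsLTP2.13 (LOC_Os11g40530), chosen after its values were seen, had 0.530, 1.75 and 1.87 CPM in oscoi2 mock libraries and 0 in the 6 WT libraries, at least 14-fold higher under mock (edgeR adjusted p = 0.004). Oscoi1ab plants had 59.1, 56.3 and 67.4 CPM of LOC_Os11g02379 under mock.

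LOC_Os12g08564 and LOC_Os12g08580, both annotated as retrotransposon genes with the first also listed as a conserved hypothetical protein, formed another lower pair. LOC_Os12g08564 had 33.9, 48.2 and 39.7 CPM in oscoi2 mock libraries, against 90.8, 92.9 and 89.6 CPM in WT mock libraries (log2FC -1.17, SE 0.15, edgeR adjusted p = 0.00083). LOC_Os12g08580 had 1.00, 1.68 and 0.941 CPM in oscoi2, against 5.80, 5.22 and 4.03 CPM in WT mock libraries (log2FC -2.05, SE 0.33, edgeR adjusted p = 0.004). They lie 5 and 4 listed loci from LOC_Os12g08620, the gene with the A insertion shown above, and the part of that insertion in their levels was not tested. After JA, LOC_Os12g08564 overlapped, with 45.5, 57.1 and 68.3 CPM in oscoi2 and 56.9, 56.8 and 58.2 CPM in WT plants.

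OscFBP2 (LOC_Os05g36270), a fructose-1,6-bisphosphatase, had 18.7, 33.6 and 20.3 CPM in oscoi2 mock libraries, against 56.9, 80.6 and 83.0 CPM in WT mock libraries (log2FC -1.60, SE 0.24, edgeR adjusted p = 0.0029). The pyridoxal phosphate-dependent transferase LOC_Os08g39300 had 80.0, 146 and 103 CPM in oscoi2, against 208, 285 and 253 CPM in WT mock libraries (log2FC -1.18, SE 0.20, edgeR adjusted p = 0.0047). The serine acetyltransferase OsSAT (LOC_Os01g52260), which feeds cysteine synthesis and was picked after its values were seen, had 10.3, 15.1 and 15 CPM in oscoi2, against 31.2, 51.0 and 45.5 CPM in WT mock libraries (log2FC -1.66, edgeR adjusted p = 0.0023). The groups overlapped after JA for all 3 genes, of which OsSAT had 22.1, 32.7 and 44.7 CPM in oscoi2 and 17.5, 23.5 and 24.0 CPM in WT plants.

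LOC_Os01g04620, annotated with a peptidase C26 domain in one source and as a transposon protein in the other, had 31.1, 39.8 and 35.9 CPM in oscoi2 mock libraries, against 59.9, 96.7 and 70.1 CPM in WT mock libraries (log2FC -1.09, edgeR adjusted p = 0.0055). The class III peroxidase prx115 (LOC_Os07g48060) had the largest fall among lower DEGs of at least 1 CPM, with 0.283, 0.199 and 0.281 CPM in oscoi2, against 2.09, 2.51 and 1.86 CPM in WT mock libraries (log2FC -3.08, SE 0.49, edgeR adjusted p = 0.0042). LOC_Os11g39430, a protein with a nucleotide-binding alpha-beta plait domain, had 2.35, 1.48 and 1.74 CPM in oscoi2, against 7.64, 7.79 and 8.51 CPM in WT mock libraries (log2FC -2.10, SE 0.23, edgeR adjusted p = 0.00014). LOC_Os09g22000, of the HAD-type hydrolases, was lower by a log2FC of -2.43 and LOC_Os03g13050, of the DUF607 family, by -1.98. LOC_Os05g38040, LOC_Os06g05440 and Os08g0503600, all of unknown function, had log2FC of -1.30, -1.18 and -2.1.

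Of the transcription factors listed in the study, 4 were DEGs. OsERF96 (LOC_Os10g41330), of the ethylene response factor family, was higher, with 8.16, 13.2 and 17.4 CPM in oscoi2 mock libraries, against 0.974, 3.02 and 2.49 CPM in WT mock libraries (log2FC 2.58, SE 0.43, edgeR adjusted p = 0.0047). One source annotates it as a noncoding transcript and the other as an AP2 domain protein. Oscoi1ab mock libraries had 4.3, 10.4 and 11.2 CPM, also above the WT libraries (log2FC over WT 2.00, edgeR adjusted p = 0.054). OsMADS26 (LOC_Os08g02070), a MADS-box factor, was lower at 14.6, 17.4 and 16.3 CPM in oscoi2, against 32.7, 31.9 and 34.7 CPM in WT mock libraries (log2FC -1.04, SE 0.14, edgeR adjusted p = 0.0014). OsTCP25 (LOC_Os09g34950), of the TCP family, had 0.283, 0.216 and 0.339 CPM in oscoi2, against 1.38, 2.01 and 1.37 CPM in WT mock libraries, and was lower still in oscoi1ab, at 0.00789, 0 and 0.00787 CPM. The FAR1-type gene LOC_Os08g20486, annotated as a transposon protein, had 0.502, 1.26 and 0.487 CPM in oscoi2, against 2.76, 3.63 and 3.33 CPM in WT mock libraries (log2FC -2.11, edgeR adjusted p = 0.0067). The call of OsMADS26 was lost without oscoi2 mock 1, and that of OsTCP25 in each omission.

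In the JA pathway no gene of synthesis, perception or repression was a DEG by edgeR's quasi-likelihood test under mock. The 14 JA metabolism genes had a median log2FC of 0.34, with 6 higher and 1 lower at an unadjusted p under 0.05, where 12.1% and 10.6% of all genes were. OsOPR7 (LOC_Os08g35740), the reductase of the JA precursor OPDA, had 80.0, 78.2 and 82.9 CPM in oscoi2 mock libraries, against 56.2, 66.7 and 57.3 CPM in WT mock libraries, and reached a log2FC of 0.42 (SE 0.11, edgeR adjusted p = 0.036). OsJAR2 (LOC_Os01g12160), a JA-amino acid synthetase, was the member lower at an unadjusted p under 0.05, with 5.31, 9.42 and 6.71 CPM in oscoi2, against 10.8, 25.5 and 18.6 CPM in WT mock libraries (log2FC -1.36, edgeR adjusted p = 0.053), and DESeq2 alone called it. Of the 15 OsJAZ repressor genes 14 were tested, with a median of 0.30 and 3 higher at an unadjusted p under 0.05. Of these, OsJAZ6 (LOC_Os03g28940) had 40.8, 37.3 and 45.9 CPM in oscoi2, against 29.0, 31.7 and 29.9 CPM in WT mock libraries (log2FC 0.45, edgeR adjusted p = 0.054). OsJAZ10 (LOC_Os03g08330) had 29.5, 26.1 and 33.7 CPM in oscoi2, against 16.1, 17.2 and 12.8 CPM in WT mock libraries (log2FC 0.96, edgeR adjusted p = 0.12), and OsJAZ15 was at or under 0.0777 CPM in all 6 libraries. OsMYC2 (LOC_Os10g42430), the factor released from JAZ repression, overlapped with 49.5, 56.0 and 63.0 CPM in oscoi2 and 54.8, 67.6 and 51.6 CPM in WT mock libraries. The 4 JA transcription factors described had a median of 0.15, and none had an unadjusted p under 0.05.

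After JA, in separate libraries, OsJAZ6 and OsOPR7 stood lower in oscoi2 than in WT plants. OsJAZ6 had 195, 172 and 172 CPM in oscoi2 and 385, 361 and 449 CPM in WT plants. OsOPR7 had 132, 115 and 99.8 CPM in oscoi2 and 236, 247 and 272 CPM in WT plants. Of the 14 OsJAZ genes tested, 9 were DEGs lower in oscoi2 than in WT plants after JA, where 2.22% of all genes were. OsJAZ, JA metabolism and the other pathway lists of the study were chosen in part on these JA libraries and the mock libraries. They are no independent evidence of a direction.

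Genes of photosynthesis stood lower in oscoi2 root tips as a group. The study listed the 41 as lowered by JA in WT plants. That choice uses the same WT mock libraries, so part of the direction is built in. All 41 had a log2FC below 0, with a median of -1.18, and 23 were lower at an unadjusted p under 0.05 by edgeR's quasi-likelihood test, where 10.6% of all genes were. None was a DEG by that test, while the likelihood ratio test, DESeq2 and limma-voom each called OsPETC alone. OsPETC (LOC_Os07g37030), the Rieske protein of the cytochrome b6f complex, had 23.0, 41.3 and 34.4 CPM in oscoi2 mock libraries, against 59.5, 89.7 and 74.6 CPM in WT mock libraries (log2FC -1.18, SE 0.26, edgeR adjusted p = 0.017). OsPsbR3 (LOC_Os08g10020), a subunit of photosystem II, had 6.03, 15.3 and 12.5 CPM in oscoi2, against 15.3, 46.7 and 41.5 CPM in WT mock libraries (log2FC -1.61, SE 0.47, edgeR adjusted p = 0.05). Library 1 was the lowest of each group, and the groups did not overlap for OsPETC but met at 15.3 CPM for OsPsbR3.

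Summed over the 41 genes, photosynthesis transcripts made 356, 865 and 813 CPM in oscoi2 mock libraries, against 879, 2197 and 1733 CPM in WT mock libraries, a ratio of 2.37 of the WT over the oscoi2 mean. Oscoi1ab plants had 1122, 2318 and 1768 CPM under mock. After JA the sum was 325, 709 and 547 CPM in oscoi2 plants, above the 135, 271 and 205 CPM in WT plants. The 6 green tissue markers were all below 0, with a median log2FC of -1.38. Their summed level was 40.1 to 157 CPM in oscoi2 against 123 to 454 CPM in WT mock libraries. Of these markers OsLhcb1a, OsLhcb2 and OsPsaD are also among the 41 photosynthesis genes, so part of the likeness is built in. Of the 6 markers, 3 had an unadjusted p under 0.05, where 10.6% of all genes were lower. No green marker was a DEG by edgeR's quasi-likelihood test, its likelihood ratio test, DESeq2 or limma-voom. OsRBCS3 (LOC_Os12g19381), a small subunit of Rubisco, had 7.08, 32.6 and 16.5 CPM in oscoi2, against 37.1, 115 and 93.1 CPM in WT mock libraries. The part of plastid-rich tissue in the photosynthesis result was not tested.

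**Figure D3:**
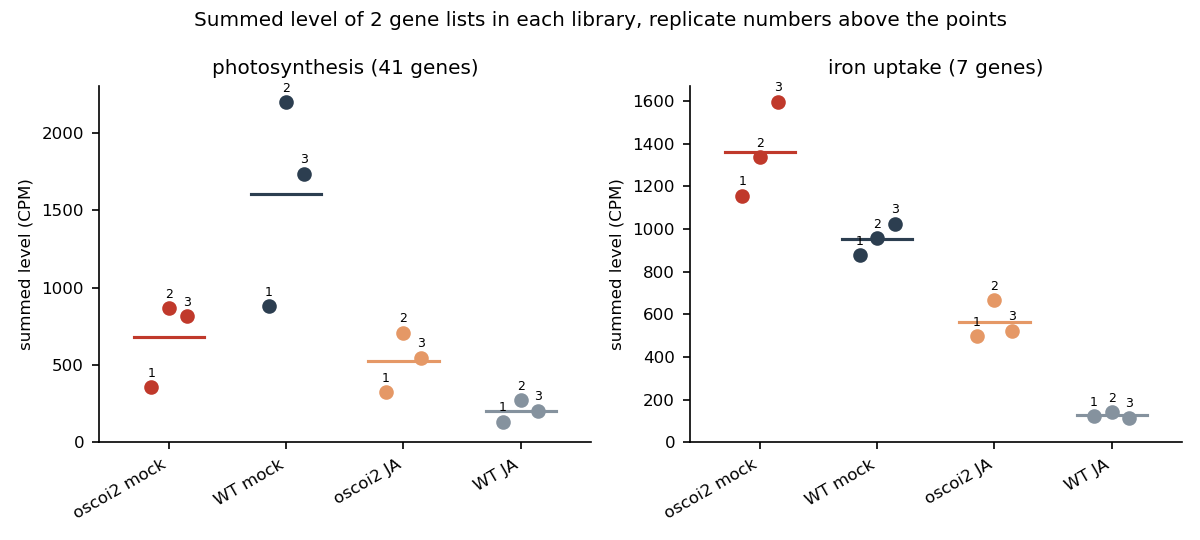
Summed level (CPM) of the 41 photosynthesis genes and of the 7 iron uptake genes in each library of oscoi2 mock, WT mock, oscoi2 JA and WT JA plants, with the replicate number above each point. Photosynthesis sums are 356 to 865 CPM in oscoi2 mock and 879 to 2197 CPM in WT mock plants, and the order of the lines is reversed after JA.

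Genes of the shikimate and phenylpropanoid pathways, which lead to aromatic amino acids, lignin and flavonoids, mostly had a positive log2FC, in 24 of 34 members. The list had a median log2FC of 0.39. At an unadjusted p under 0.05, 16 were higher and 2 lower, where 12.1% and 10.6% of all genes were. OsC4H2 (LOC_Os05g25640), a cinnamate 4-hydroxylase, had 381, 317 and 426 CPM in oscoi2 mock libraries, against 209, 278 and 217 CPM in WT mock libraries (log2FC 0.67, SE 0.15, edgeR adjusted p = 0.017). OsDHQS (LOC_Os09g36800), the dehydroquinate synthase of the shikimate pathway, had 55.1, 53.8 and 55.1 CPM in oscoi2, against 38.4, 39.7 and 39.6 CPM in WT mock libraries (log2FC 0.48, SE 0.11, edgeR adjusted p = 0.022). OsEPSPS (LOC_Os06g04280), which follows in the same pathway, had 137, 125 and 127 CPM in oscoi2, against 92.5, 86.1 and 97.4 CPM in WT mock libraries (log2FC 0.50, SE 0.12, edgeR adjusted p = 0.022). The groups did not overlap for these 3 genes, where 14.6% of all genes lay higher without overlap, and the fold was under that of a DEG. OsANR3 (LOC_Os04g53810), named as an anthocyanidin reductase, was the 1 DEG of the list and was lower, with 1.42, 2.21 and 1.07 CPM in oscoi2, against 3.58, 5.44 and 4.54 CPM in WT mock libraries (log2FC -1.53, SE 0.27, edgeR adjusted p = 0.0061).

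Defense genes had values on both sides of 0. The 24 members had a median log2FC of 0.09 and no DEG by edgeR's quasi-likelihood test. At an unadjusted p under 0.05, 2 were higher and 3 lower, where 12.1% and 10.6% of all genes were. OsNPR1 (LOC_Os01g09800), the coactivator of salicylic acid responses, had 47.5, 62.4 and 53.9 CPM in oscoi2 mock libraries, against 78.6, 80.8 and 84.4 CPM in WT mock libraries (log2FC -0.57, SE 0.10, edgeR adjusted p = 0.0068). OsGns1 (LOC_Os05g31140), a glucanase, had 167, 305 and 243 CPM in oscoi2, against 406, 718 and 652 CPM in WT mock libraries (log2FC -1.31, SE 0.26, edgeR adjusted p = 0.01), and was a DEG by the likelihood ratio test, DESeq2 and limma-voom. The 27 tested genes of the MEP and diterpene phytoalexin pathways, which make antimicrobial terpenoids, had a median of 0.00 with 1 higher and 2 lower at an unadjusted p under 0.05. Of these only the trace-level OsCYP76M6 was called, by the likelihood ratio test.

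Cell wall genes, cell cycle genes and barrier genes of the root were described next. The 32 cell wall genes had a median log2FC of 0.44. At an unadjusted p under 0.05, 5 were higher and 1 lower, where 12.1% and 10.6% of all genes were. OsXTH2 (LOC_Os11g33270), a wall-loosening xyloglucan endotransglucosylase, had 223, 159 and 228 CPM in oscoi2 mock libraries, against 77.0, 113 and 55.0 CPM in WT mock libraries (log2FC 1.31, SE 0.47, edgeR adjusted p = 0.1). The 4 cell cycle genes all had a log2FC above 0, with a median of 0.24 and no unadjusted p under 0.05. OsCASP1 (LOC_Os04g58760), a scaffold protein of the Casparian strip, had 194, 131 and 180 CPM in oscoi2, against 107, 98.3 and 79.1 CPM in WT mock libraries (log2FC 0.83, SE 0.15, edgeR adjusted p = 0.0082). OsCASP2 (LOC_Os08g01160) of the same family had 21.4, 18.8 and 25.4 CPM in oscoi2, against 10.3, 12.0 and 7.10 CPM in WT mock libraries (log2FC 1.16, SE 0.25, edgeR adjusted p = 0.015). OsLsi2 (LOC_Os03g01700), the silicon efflux transporter, stood the other way, with 813, 940 and 871 CPM in oscoi2 and 1293, 1258 and 1201 CPM in WT mock libraries (log2FC -0.52, edgeR adjusted p = 0.031), and the 6 Casparian strip and endodermis genes had a median of -0.03. OsCASP2 was called by the likelihood ratio test, DESeq2 and limma-voom.

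Water channels and nutrient transporters had values in both directions. OsTIP1;2 (LOC_Os01g74450), a tonoplast aquaporin, had 164, 243 and 240 CPM in oscoi2 mock libraries, against 346, 536 and 447 CPM in WT mock libraries (log2FC -1.04, SE 0.22, edgeR adjusted p = 0.015). OsTIP2;1 (LOC_Os02g44080) of the same family had 607, 454 and 677 CPM in oscoi2, against 256, 341 and 252 CPM in WT mock libraries (log2FC 1.03, SE 0.28, edgeR adjusted p = 0.038). The 13 aquaporins had a median of -0.08. At an unadjusted p under 0.05, 2 were higher and 4 lower, where 12.1% and 10.6% of all genes were. None was a DEG by the quasi-likelihood test, and both OsTIP genes were called by the likelihood ratio test and DESeq2. OsAMT1;1 (LOC_Os04g43070), a root ammonium transporter, had 65.3, 57.3 and 78.6 CPM in oscoi2, against 34.4, 43.7 and 36.0 CPM in WT mock libraries (log2FC 0.82, SE 0.13, edgeR adjusted p = 0.0044). It was the 1 member with an unadjusted p under 0.05 of the 6 nitrate and ammonium uptake genes tested, whose median was 0.18. After JA, OsAMT1;1 stood lower in oscoi2, at 46.4, 43.4 and 42.6 CPM against 60.6, 72.9 and 82.4 CPM in WT plants.

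Hormone and root development genes gave few differences. GID1 (LOC_Os05g33730), the gibberellin receptor, had 236, 243 and 232 CPM in oscoi2 mock libraries, against 350, 367 and 331 CPM in WT mock libraries (log2FC -0.56, SE 0.09, edgeR adjusted p = 0.0048), while the 6 gibberellin genes had a median of -0.01. At an unadjusted p under 0.05, 12.1% of all genes were higher and 10.6% lower. Of the 8 type-A response regulators tested, which are early targets of cytokinin, 3 were higher at that limit, with a median of 0.35. OsRR6 (LOC_Os04g57720) among them had 12.5, 12.8 and 14.2 CPM in oscoi2, against 8.82, 9.34 and 8.43 CPM in WT mock libraries (log2FC 0.57, edgeR adjusted p = 0.039). The 6 root regulators tested had a median of -0.28 with 2 lower at an unadjusted p under 0.05, the 8 root tip markers a median of -0.22 with 1 higher and 3 lower, and the 2 root hair markers a median of 0.49 with none. No member of the OsCOI, OsJAZ, cell wall, cell cycle, JA transcription factor, nitrate and ammonium uptake, type-A response regulator, gibberellin, root regulator, root hair or root tip lists was called by edgeR's quasi-likelihood or likelihood ratio test, by DESeq2 or by limma-voom.

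The transcription factor lists of the study hold genes that JA raised or lowered through OsCOI2, and so they were chosen on these samples. The 63 factors lowered by JA had a median log2FC of -0.19 in oscoi2 under mock. At an unadjusted p under 0.05, 2 were higher and 13 lower, where 12.1% and 10.6% of all genes were. OsERF141 (LOC_Os02g42585) had 4.28, 10.4 and 7.30 CPM in oscoi2 mock libraries, against 18.5, 32.2 and 24.7 CPM in WT mock libraries (log2FC -1.78, SE 0.36, edgeR adjusted p = 0.012). The bHLH gene LOC_Os12g41650 had 2.05, 3.27 and 2.18 CPM in oscoi2, against 6.22, 6.06 and 4.65 CPM in WT mock libraries (log2FC -1.17, SE 0.25, edgeR adjusted p = 0.015). The quasi-likelihood test made no DEG of this list, the likelihood ratio test 5, DESeq2 4 and limma-voom 4, all lower. Among the 76 factors raised by JA the median was 0.14, with 14 higher and 4 lower at an unadjusted p under 0.05, and the 1 call was by the likelihood ratio test, of the trace-level LOC_Os11g39000.

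**Figure D4:**
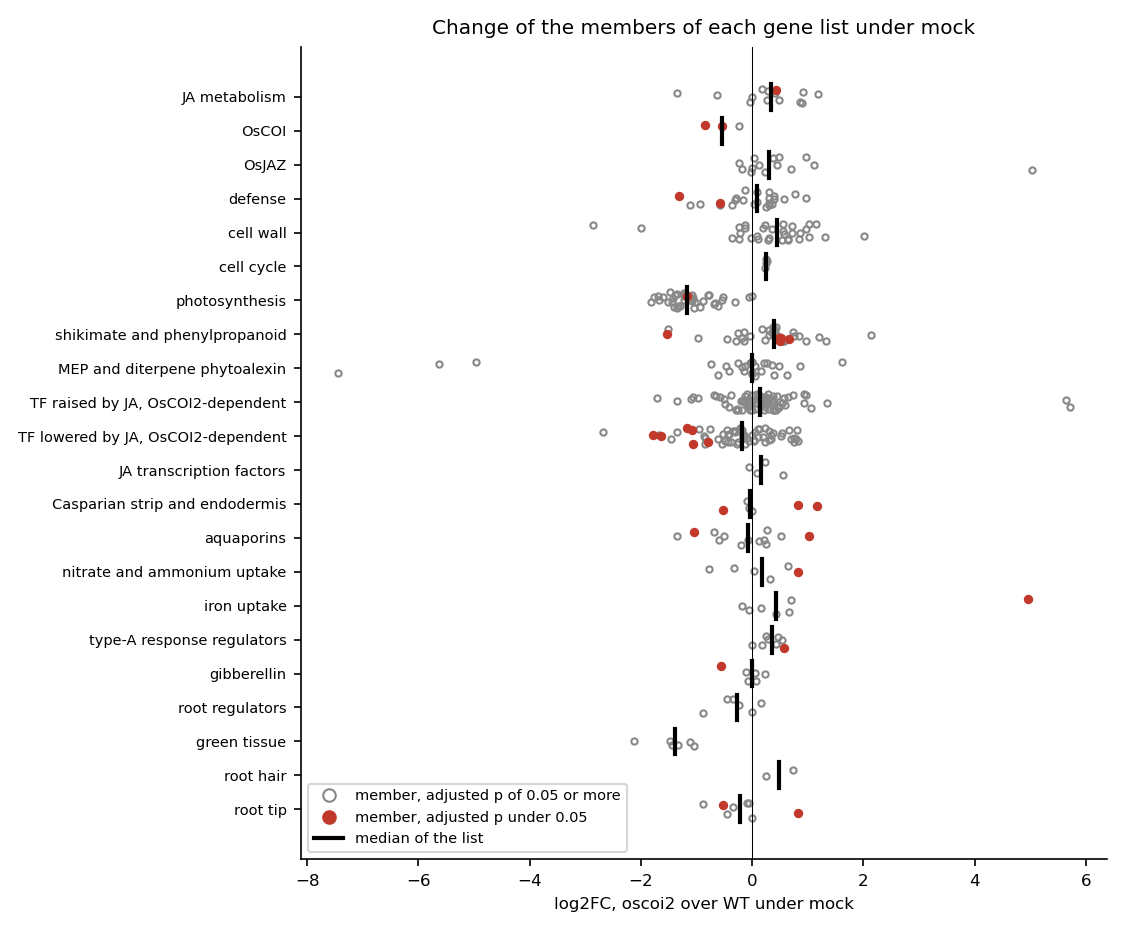
Change (log2FC, oscoi2 over WT under mock) of every tested member of the gene lists, 1 row per list, filled where edgeR's adjusted p is under 0.05, with a bar at the list median. Photosynthesis and green tissue genes lie to the left with medians of -1.18 and -1.38, and OsNAS3 stands alone in the iron uptake row at 4.95. The photosynthesis genes were chosen in part on the WT mock libraries and share members with the green tissue list.

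The DEGs found under mock were read in the JA libraries, which are not among the 6 libraries compared. They entered the same fit of all 18 libraries, so they shared in the estimate of spread and the count filter behind the calls. The reading is therefore not independent. In a fit of only the libraries compared, 17 of 22 higher DEGs and 0 of 2 lower DEGs were DEGs of the same direction after JA. Of the 68 higher DEGs, 55 (80.9%) were DEGs higher in oscoi2 than in WT plants after JA, where 1.71% of all genes were (3.92% in either direction), and 65 had a log2FC above 0. OsABCB2 was among them, with 65.1, 72.4 and 69.3 CPM in oscoi2 and 14.0, 15.8 and 12.5 CPM in WT plants after JA (log2FC 2.29, edgeR adjusted p = 1.1e-07). OsERF96 was not, with 7.66, 6.67 and 12.4 CPM in oscoi2 and 5.26, 6.65 and 7.44 CPM in WT plants after JA. Of the 48 lower DEGs, 10 (20.8%) were DEGs lower after JA, where 2.22% of all genes were, and 1 was a DEG higher, where 1.71% were. The exception was LOC_Os03g61160, a conserved hypothetical gene with 17.4, 44.0 and 27.9 CPM in oscoi2, against 13.5, 12.3 and 9.09 CPM in WT plants after JA, while under mock it had 16.5, 31.1 and 16.9 CPM in oscoi2, against 66.5, 68.4 and 65.8 CPM in WT plants.

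**Figure D5:**
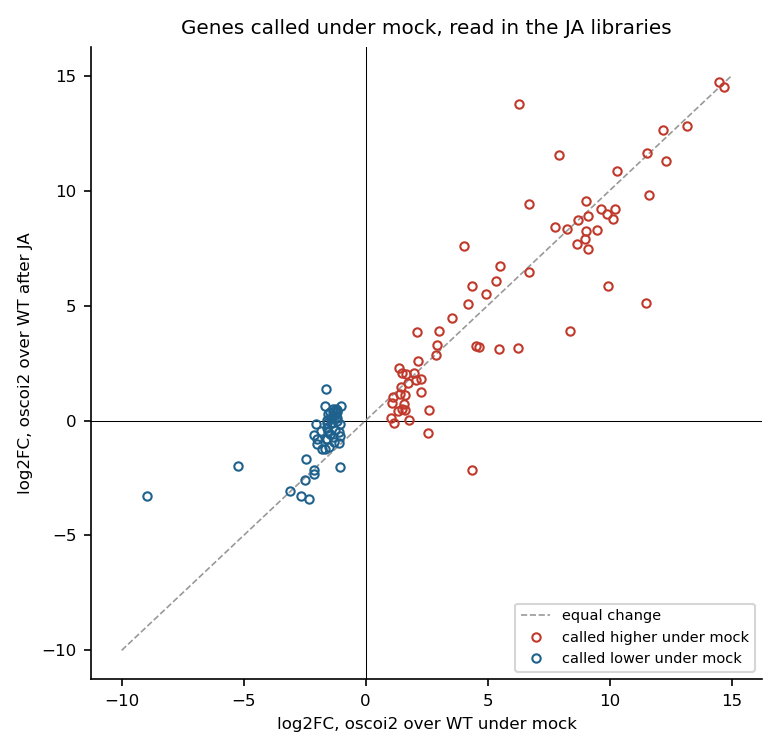
Change of the 116 DEGs under mock (log2FC, oscoi2 over WT, horizontal) and in the JA libraries (log2FC, oscoi2 over WT, vertical), with a dashed line where both are equal. Of the 68 higher DEGs 65 lie above 0 after JA, and of the 48 lower DEGs 34 lie below 0.

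JA itself moved part of these genes in oscoi1ab plants, whose libraries are separate from those compared but entered the same fit. Of the 68 higher DEGs, 14 (20.6%) were raised by JA in oscoi1ab plants, where 7.48% of all genes were, and 2 (2.94%) were lowered, where 8.15% were. Of the 48 lower DEGs, 9 (18.8%) were raised and 10 (20.8%) lowered. The thionin-like LOC_Os07g25060 was one of those raised, with 296, 251 and 244 CPM after JA and 52.6, 34.4 and 48.1 CPM under mock in oscoi1ab plants. LOGL3 (LOC_Os03g01880), named after the LOG enzymes of cytokinin activation and picked after its values were seen, had 14.4, 13.4 and 15.4 CPM after JA and 1.53, 1.39 and 1.46 CPM under mock in oscoi1ab plants. In oscoi2 plants LOGL3 was at 0.0639, 0.199 and 0.537 CPM under mock, against 0.814, 2.31 and 1.92 CPM in WT plants.

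The DEGs were also read in the JA libraries of oscoi1ab and WT plants. None of these is among the 6 libraries compared, but all entered the fit and the count filter that called the DEGs. In 44 of the 68 higher DEGs (64.7%) all 3 oscoi1ab libraries lay above all 3 WT libraries after JA, where 4.93% of all genes did, and in 14 of the 48 lower DEGs (29.2%) all lay below, where 4.24% did. LOC_Os07g32710 had 417, 559 and 526 CPM in oscoi1ab and 2.38, 7.5 and 1.60 CPM in WT plants after JA. OsNAS3 had 10.6, 14.1 and 13.0 CPM in oscoi1ab and 0.496, 1.12 and 0.604 CPM in WT plants after JA. OsABCB2 differed from them, with 15.4, 12.4 and 13.1 CPM in oscoi1ab and 14.0, 15.8 and 12.5 CPM in WT plants after JA. Whether the changes found in both edited lines come from the receptors or from what else the lines share cannot be told apart here.

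Whether the difference between oscoi2 and WT plants itself changed with JA was read from an interaction contrast (JA minus mock), added after the data were seen, which 1.31% of all genes passed higher and 1.63% lower. Of the 116 DEGs, 20 passed it: 15 lower DEGs with a contrast above 0 and 5 higher DEGs with a contrast below 0. LOC_Os11g02379 was one of the 15, with 36.9, 46.4 and 51.3 CPM in oscoi2 and 68.6, 51.1 and 66.7 CPM in WT plants after JA, a contrast of 1.36 (SE 0.22, edgeR adjusted p = 0.0012). LOC_Os12g02210 was one of the 5, with a contrast of -3.09 (SE 0.54, edgeR adjusted p = 0.0021), while its level was above that of WT plants under both treatments. Genes picked for their difference under mock enter such a contrast with part of it built in.

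Tested directly, oscoi2 differed from oscoi1ab under mock for OsABCB2 (log2FC 1.30, edgeR adjusted p = 0.00031) and LOC_Os12g02210 (log2FC 6.01, edgeR adjusted p = 1.2e-05). Oryzain alpha was lower than in oscoi1ab (log2FC -1.99, edgeR adjusted p = 0.006), as was prx115 (log2FC -3.01, edgeR adjusted p = 0.0031). For OsNAS3 the log2FC was 0.06 (edgeR adjusted p = 0.92) and for LOC_Os07g32710 it was -0.20 (edgeR adjusted p = 0.8). OsTCP25 was higher in oscoi2 than in oscoi1ab (log2FC 5.42, edgeR adjusted p = 0.00042). Over all genes 0.340% were DEGs higher and 0.398% lower than in oscoi1ab plants. These values share the oscoi2 mock libraries with the comparison against WT plants.

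By position, 16 of the 103 DEGs with an MSU locus stood in 8 pairs at most 10 listed loci apart, and 7 of these pairs changed in 1 direction. The pair that did not was the phytoglobin gene, which was higher, and LOC_Os03g13050, which was lower. LOC_Os11g40640, an unclassified transposon gene, and the adjacent LOC_Os11g40650 made a higher pair, with 3.87, 3.07 and 2.45 CPM of LOC_Os11g40640 in oscoi2, against 0, 0.0352 and 0 CPM in WT mock libraries. Chromosome 11 had the largest share of DEGs, 11 higher and 6 lower among 1837 tested genes (0.925%), followed by chromosome 7 with 0.605%, and chromosome 3, which carries OsCOI2, had 9 higher and 4 lower (0.341%).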

How the data were processed

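RNA-seq of crown root tips of 3 lines under mock or JA gave 18 libraries, grouped by title. The authors ran FastQC and CutAdapt on the reads, aligned them with HISAT2 to both rice references (MSU7, RAP-DB), used StringTie and turned its output into counts with a script of their own. Versions are not given in the sources used here. The deposited values are estimated counts per gene, whole numbers without normalization, with totals of 99657931 to 113672521 per library and a spacing of about 3.72 counts. The number of counts per read pair is not given there. Strand use in counting is not stated either.

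Of 64687 genes listed, 30907 reached a sum of 180 counts and entered 1 fit of all 18 libraries in 6 groups (edgeR 4.0.16 quasi-likelihood with TMM, run under R 4.3.3). SE is the size of log2FC divided by the square root of F. The script was tested on simulated data. The 3 samples per group are described as independent biological samples. Alternatives were the likelihood ratio test, DESeq2 1.42.0, limma-voom (limma 3.58.1), a replicate block, a fit of only the libraries compared, other scalings, filters and limits, and omission of each library. Figures were drawn with matplotlib 3.10.9.

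Named genes are the receptors, DEGs in a list or with a transcription factor family, the 10 of highest level and the 10 of largest log2FC per direction (mean of at least 1 CPM for the last, groups not overlapping), the 4 members of lowest p per list and neighbouring DEGs. Members, lists and tests were chosen with earlier results of these data known. Word lists over annotation text were not run. Genome, promoter and protein sequences were not used here. List members without enough counts (OsJAZ14, LOC_Os01g09930, OsAMT1;2, OsRR5 and CRL5) were not tested.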

Additional observations from a re-analysis of the deposited data

Results flagged for a closer look

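For 20 of the 116 DEGs, the difference between oscoi2 and WT plants itself differed between the treatments, by an interaction contrast of edgeR (JA minus mock, log2 scale) that was added after the data were seen. Since the genes were chosen for their difference under mock, a contrast that contains the mock libraries is partly built in. Adjusted p-values ran from 0.00036 to 0.0092. Among the 15 genes lower in oscoi2 under mock, the contrast was 2.99 for LOC_Os03g61160, 2.28 for OsSAT (LOC_Os01g52260), 1.87 for the alpha-galactosidase gene LOC_Os10g35070, 1.83 for LOC_Os01g37350, 1.82 for OsANR3 (LOC_Os04g53810) and 1.74 for the peroxisome biogenesis gene LOC_Os03g02590. It was 1.72 for LOC_Os11g16924, 1.64 for OsUMAMIT15 (LOC_Os10g14920), 1.63 for the isoflavone reductase-type gene LOC_Os12g16290, 1.53 for LOC_Os08g39300 and 1.47 for the vacuolar iron transporter gene LOC_Os09g23300. It was 1.36 for LOC_Os11g02379, 1.30 for LOC_Os06g05440, 1.29 for LOC_Os02g05410 and 1.16 for LOC_Os12g08564. Among the 5 genes higher in oscoi2 under mock, it was -1.16 for LOC_Os07g46910, -1.29 for LOC_Os08g03070, -3.09 for LOC_Os12g02210, -3.09 for Os01g0956300 and -6.52 for OsALDH3E2 (LOC_Os02g43280). OsALDH3E2 was at 0, 0.0352 and 0 CPM in WT mock libraries, so the size of its contrast is no bound. Over all genes tested, 1.31% passed higher and 1.63% lower in this contrast.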

How the results depend on the processing

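The DEG count under mock depended on the threshold, the test, the libraries fitted and single libraries. Higher DEGs were 188 at an FDR limit of 0.05, 176 with no fold minimum, 186 by the likelihood ratio test, 133 by DESeq2 and 22 in a fit of only the libraries compared, and 37 to 120 when 1 library was left out. Lower DEGs were 219, 116, 206, 202 and 2 under the same settings, 84 by limma-voom and 9 to 136 when 1 library was left out. With the replicate number as a block there were 87 higher and 157 lower DEGs. Equal numbers correlated with r of 0.482, 0.0853 and -0.0912 after removal of group means, and 1 of the 3 oscoi2 libraries correlated best with the WT library of its own number, so the samples were not treated as paired. Among the lists, the block called 13 photosynthesis, 2 green tissue, 6 JA-lowered transcription factor, 2 aquaporin and 1 defense gene lower, against 0 in each without it. Of the 68 and 48 DEGs, DESeq2 also called 47 and 46, limma-voom 38 and 40, and the block all. DEGs of oscoi2 against WT after JA were 1947 at an FDR limit of 0.05, 2356 with no fold minimum and 1835 by DESeq2, and 732 to 1205 with 1 library left out. Against oscoi1ab under mock they were 622, 817, 553 by the likelihood ratio test, 542 by DESeq2, 401 with the block, 3 in a fit of only the libraries compared and 19 to 420 with 1 library left out. JA against mock in oscoi1ab gave 8146 with no fold minimum and 4132 to 4764 with 1 library left out. The 65 DEGs under mock that were DEGs of the same direction after JA became 140 at an FDR limit of 0.05, 142 by the likelihood ratio test, 43 by limma-voom, 17 in a fit of only the libraries compared and 38 to 73 with 1 library left out. No result reversed. List medians moved by more than the replicate spread in 2 of 132 values with 1 library left out and in 0 of 198 under other settings. Of 768 single-gene values with 1 library left out, 129 lost their call and 3 gained one, and of 1408 under other settings 54 and 58. A library with no count allows a level of up to about 0.102 CPM in the 6 mock libraries compared. In the JA libraries this limit reached 0.125 CPM, in WT JA library 3. Levels under these limits are uncertain.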

Other observations

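In several DEGs that spread within oscoi2, the mock and the JA library of equal number had close levels, a pattern noticed after the data were seen. Oryzain alpha had 35.8, 52.3 and 96.9 CPM in oscoi2 JA libraries 1 to 3 and 31.9, 58.8 and 124 CPM in oscoi2 mock libraries 1 to 3. LOC_Os03g18779 had 42.4, 28.2 and 12.3 CPM after JA and 46.8, 29.8 and 15.3 CPM under mock. LOC_Os03g02470 had 42.7, 11 and 39.9 CPM after JA and 29.6, 11.4 and 38.9 CPM under mock. The retrotransposon gene LOC_Os07g10850 spread alike in oscoi1ab, with 0.831, 12.6 and 4.77 CPM after JA and 0.600, 15.9 and 4.23 CPM under mock, while in oscoi2 mock libraries it had 11.6, 14.6 and 12.7 CPM. Other DEGs that spread within oscoi2 lacked the pattern. LOC_Os06g44800 had 0.405, 0.245 and 2.52 CPM in oscoi2 after JA and 7.09, 2.84 and 1.03 CPM under mock. OsLTP2.13 had 0.886, 0.255 and 0.924 CPM after JA and 0.530, 1.75 and 1.87 CPM under mock. Across 17616 genes, deviations from the group mean were compared between the JA and the mock library of a number, with r of 0.215, 0.468 and 0.0913 in oscoi2 and 0.0552, 0.25 and 0.157 in oscoi1ab plants, where genes are not independent replicates. Equal numbers were not always the closest. JA library 3 of oscoi2 had r of 0.135 with mock library 1, and JA library 1 of oscoi1ab had 0.0608 with mock library 3. Whether equal numbers share a batch of plants is not given in the sources used here.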
